A study of Mus musculus with 6 samples.

Results

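Rarres2 and 7 other genes whose array signal was far below control after tamoxifen were described here in cultured mouse tail tissue fibroblasts. The other 7 were Gngt2, Parm1, Hspb7, Crct1, Agtr1a, Ppef1 and Arsi. They were selected on their measured signal, because both tamoxifen-exposed groups read far below control in these arrays, so the contrasts against control that follow are descriptions and carry no test. All 10 non-control probes of the 8 genes were used, out of 56605 on the array, and all 8 genes were among the 23058 genes tested. RefSeq symbols were assigned through the accession printed on each probe.

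Rarres2 encodes chemerin, a secreted precursor that proteases trim at its carboxyl end into a chemoattractant for immune cells and an adipose-tissue signal. Mature chemerin acts through the receptor Cmklr1 and also binds Gpr1, while Ccrl2 binds it without known signalling and presents it to nearby cells. The gene is known to respond to retinoids, and fibroblasts of the skin are among its sources. The other genes have different roles. Gngt2 encodes the G protein gamma subunit of cone transducin, and Agtr1a the main angiotensin II receptor of rodents. Ppef1 encodes a serine/threonine phosphatase with EF-hand calcium-binding motifs, and Arsi a member of the sulfatase family. Hspb7 encodes a small heat shock protein of heart and skeletal muscle. Parm1 encodes a mucin-like membrane glycoprotein, and Crct1 a cysteine-rich protein of cornifying epidermis.

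The cells were C57BL/6 tail tissue fibroblasts (TTF) that the labels give as LH2F/F CAG-Cre and as LH2 cKO in all 3 groups of 2 arrays. LH2 is lysyl hydroxylase 2, encoded by Plod2, and CAG is a broadly active synthetic promoter. The control arrays came from cells in tamoxifen (-) medium. The arrays called no.1 came from cells in tamoxifen (+) medium after 24 h of tamoxifen, and those called no.2 from cells in tamoxifen (-) medium after 24 h of tamoxifen. Controls thus carried the conditional allele and the CAG-Cre too, and no group had tamoxifen without both. In the names of the deposited files, controls bear 0 h, while replicate 1 of each other group bears 24 h and replicate 2 bears 48 h, where the labels give 24 h throughout. Nothing states that replicates were separate cultures or mice, so p-values measure only how far these samples spread, and that spread may be technical. In bulk RNA, fewer cells of a type and less RNA per cell cannot be told apart.

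Array-wide values bear on every fold below. The 75th percentile of the processed signal, to which each array was scaled, was 33.7 to 34.2 in control, 85.1 to 95.9 in no.1 and 55.1 to 56.9 in no.2. Scaled to the spike-in controls instead, the median of all 23058 genes lay 1.82 above control in no.1 and 1.19 above it in no.2 on the log2 scale, against -0.12 and -0.10 with the percentile. The control arrays lay in another row of the slide than the rest, and slide row cannot be told apart from group. Over the tested genes, no.1 replicate 2 correlated at 0.989 with no.2 replicate 1 and at 0.984 with its own group's replicate 1, and the control arrays at 0.992 with each other. With the control arrays counted as 1 sample, limma called 4845 genes in no.1 and 1246 in no.2, against 11020 and 6517. The targeted gene, Plod2, read 42.1 and 34.9 in control, 31.8 and 17.1 in no.1, then 13.3 and 8.59 in no.2. Its scaled level fell, by log2 differences of -2.13 ± 0.34 (SE) in no.1 and -2.57 ± 0.34 in no.2 (limma, adjusted p = 0.00613 and 0.00767). With spike-in scaling these were -0.19 (adjusted p = 0.592) and -1.28 (adjusted p = 0.0131). Whether that probe sits on the deleted stretch was not tested, since no source used here says so. Of 10 fibroblast markers, 9 were well above background on every array, and Lum was not on any. Their summed percentile-scaled signal was 1382 to 1440 in control, 881 to 922 in no.1 and 1131 to 1234 in no.2, and the part of this in the results was not tested. Before scaling, Col1a2, the brightest of these markers, read 15795 and 17236 in control, 31492 and 32667 in no.1, then 27384 and 31085 in no.2.

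Promoter sequence is shown because these genes read low together, for the 3 of the 8 genes matched in the RefSeq promoter table (assembly GRCm38.p6). The 250 bases before each transcription start are given 5′ to 3′ along the gene's strand, with matches to the searched motifs in capitals. Hspb7 lies at chr4:141420529-141420778 on the plus strand, Parm1 at chr5:91517450-91517699 on the plus strand, and Ppef1 at chrX:160719973-160720222 on the minus strand.

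Hspb7: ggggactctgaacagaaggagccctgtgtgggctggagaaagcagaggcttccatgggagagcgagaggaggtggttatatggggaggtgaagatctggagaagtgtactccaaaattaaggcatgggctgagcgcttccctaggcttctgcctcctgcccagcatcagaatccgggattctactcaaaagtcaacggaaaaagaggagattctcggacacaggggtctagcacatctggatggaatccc

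Parm1: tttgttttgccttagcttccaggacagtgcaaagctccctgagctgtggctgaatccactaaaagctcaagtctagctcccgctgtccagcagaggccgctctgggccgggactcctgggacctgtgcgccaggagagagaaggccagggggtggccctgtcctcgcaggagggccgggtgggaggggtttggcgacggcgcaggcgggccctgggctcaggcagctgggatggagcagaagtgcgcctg

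Ppef1: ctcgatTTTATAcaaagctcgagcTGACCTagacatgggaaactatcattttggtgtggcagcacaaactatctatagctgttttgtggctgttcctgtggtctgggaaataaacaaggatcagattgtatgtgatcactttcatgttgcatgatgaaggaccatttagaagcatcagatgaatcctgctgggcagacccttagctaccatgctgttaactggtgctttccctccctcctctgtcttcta

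The Parm1 window was 65.2% G and C with 11 CpG dinucleotides, and 83.0% of 32851 mouse promoter windows of the same length had a lower GC content. The Hspb7 window was near the middle of all promoters, with 53.6% GC and 5 CpG against medians of 52.4% and 6. The Ppef1 window was the poorest of the 3, with 44.0% GC and 2 CpG, and 21.1% of promoters had a lower GC content. Searched on both strands were the TATA box (TATAAA, in 12.4% of promoters), CCAAT (33.8%), the GC box GGGCGG (32.7%), the cAMP response element TGACGTCA (1.55%), the AP-1 site TGANTCA (6.75%), the nuclear receptor half-site AGGTCA (14.02%), the estrogen response element (0.0639%), which is the last 5 letters of the half-site, 3 free bases and their reverse complement, and the E-box CACGTG (6.02%). None of these letters was found in the Hspb7 and Parm1 windows. The Ppef1 window held TATAAA on the opposite strand, read as TTTATA from 244 bases before the start, and the half-site on the opposite strand, read as TGACCT from 226 bases before it. No motif was shared by the 3 windows.

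Chemerin fell furthest of the 8 genes in no.1 with the percentile scaling (-8.70), while with normexp background correction Gngt2 (-5.30) lay below it (-4.96). The processed signal of Rarres2, the scanner's background-subtracted brightness, was 1289 and 1348 for control, fell to 6.22 and 11.5 for no.1, and stood at 17.9 and 14.3 for no.2. Both control arrays were thus far above all 4 others, and no.1 lay below no.2 without overlap. The mean log2 level relative to the array's 75th percentile was 5.28 ± 0.059 (SD, n = 2) in control, -3.42 ± 0.75 in no.1 and -1.80 ± 0.26 in no.2. This put Rarres2 415-fold below control in no.1 and 136-fold in no.2, at 0.241% and 0.737% of control. The residual signal was still well above background on all 6 arrays, at 1.26 to 2.41 times the lowest signal called so in no.1 and 3.08 to 3.74 times it in no.2. With so little left, a fold depends on how background is removed.

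The direct receptors of chemerin were dim or variable in these cells. Cmklr1, the signalling receptor, was well above background on 1 control array, 1 no.1 array and no no.2 array, and was not tested. Gpr1 was not well above background on any array. Ccrl2 read 20.4 and 19.4 in control, 2.75 and 21.2 in no.1, then 19.8 and 15.4 in no.2, so that 1 no.1 array was low and the other was not. Its difference was -2.79 ± 0.92 (SE) in no.1 (limma, adjusted p = 0.0480, and 0.114 with the control arrays as 1 sample) and -0.91 ± 0.92 in no.2 (adjusted p = 0.471), and -0.86 and 0.38 with spike-in scaling.

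The 2 genes of G protein signalling differed in how evenly they fell. Gngt2 read 2044 and 2318 in control, 11.2 and 24.8 in no.1, then 17.4 and 33.0 in no.2. Control stood apart from the rest, while the no.1 and no.2 arrays interleaved before scaling. After scaling, Gngt2 was 348-fold below control in no.1 and 150-fold in no.2, differences of -8.44 and -7.23 on the log2 scale. A second Gngt2 probe read 1517 and 1670 in control, 9.02 and 16.1 in no.1, then 11.2 and 21.9 in no.2, with log2 differences of -8.46 and -7.39. Both probes thus gave nearly the same falls. The rod counterpart Gngt1 was not well above background on any array.

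Agtr1a was the gene whose no.2 arrays disagreed most. It read 236.2 and 236.5 in control and 5.97 and 6.83 in no.1, but 3.96 and 39.4 in no.2, where the first array was not well above background. The control arrays were alike, and 1 no.2 array was at the level of no.1 while the other was higher. The log2 difference was -6.62 in no.1 (98.5-fold lower) and -4.96 in no.2 (31.2-fold lower), with an SD between the no.2 arrays of 2.31. Without replicate 2 the no.2 difference was -6.60, and without replicate 1 it was -3.33. Among the other angiotensin receptors, Agtr1b was not well above background on any array. Agtr2 read 4.17 and 1.16 in control, 1.84 and 14.4 in no.1, then 10.1 and 44.6 in no.2, and was well above background on 0, 1 and 2 arrays. Its no.2 difference of 2.54 ± 1.22 (SE) did not pass the test (limma, adjusted p = 0.156).

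The enzymes Ppef1 and Arsi ended at or under the background. Ppef1 read 106.7 and 95.4 in control, 5.41 and 5.05 in no.1, then 2.27 and 2.25 in no.2. The no.1 arrays were just above the lowest signal called well above background, and neither no.2 array was above it. Ppef1 was 51.4-fold below control in no.1 and at least 35.3-fold below it in no.2. Here and in all that follows, "at least" is on the percentile-scaled values and is no bound under another scaling. It sets the control mean against a floor for each dim array. That floor is the array's lowest signal well above background or, where higher, the signal of the probe itself. Arsi read 33.3 and 33.6 in control, 0.982 and 0.963 in no.1, then 0.961 and 0.932 in no.2. Its probe was above background in control alone, which gave a scaled signal at least 18.4-fold lower in no.1 and at least 11.7-fold lower in no.2. As fitted, the log2 difference of Arsi was -4.58 in both groups with spike-in scaling. With normexp background correction it was only -1.09 in no.1 and -1.07 in no.2. The retinal paralog Ppef2 was not well above background on any array. Arsj, a close paralog of Arsi, read 148 and 163 in control, 380 and 370 in no.1, then 233 and 147 in no.2. Its scaled differences of -0.14 ± 0.28 (SE) and -0.47 ± 0.28 did not pass the test (limma, adjusted p = 0.700 and 0.239).

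The chaperone gene Hspb7, the membrane glycoprotein gene Parm1 and the epidermal gene Crct1 kept some signal above background on every array. Hspb7 read 575 and 625 in control, 26.2 and 27.9 in no.1, then 27.8 and 7.71 in no.2. The second no.2 array was the lowest, and no control array came near the rest. Its differences were -5.88 in no.1 (59.1-fold lower) and -6.08 in no.2 (67.6-fold lower). A dimmer Hspb7 probe read 48.7 and 44.4 in control, 4.92 and 4.66 in no.1, then 6.09 and 2.09 in no.2. It was above background on no no.1 array and on 1 no.2 array. Parm1 read 598 and 633 in control, 49.6 and 21.8 in no.1, then 15.6 and 10.6 in no.2. Here no.1 was the higher of the exposed groups before scaling, the reverse of Rarres2. Parm1 was 49.8-fold below control in no.1 and 78.9-fold in no.2. Crct1 read 696 and 714 in control, 23.3 and 22.8 in no.1, then 20.4 and 15.1 in no.2. It was the most even of the 3 within groups, 81.4-fold below control in no.1 and 66.3-fold in no.2.

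**Figure D1:**
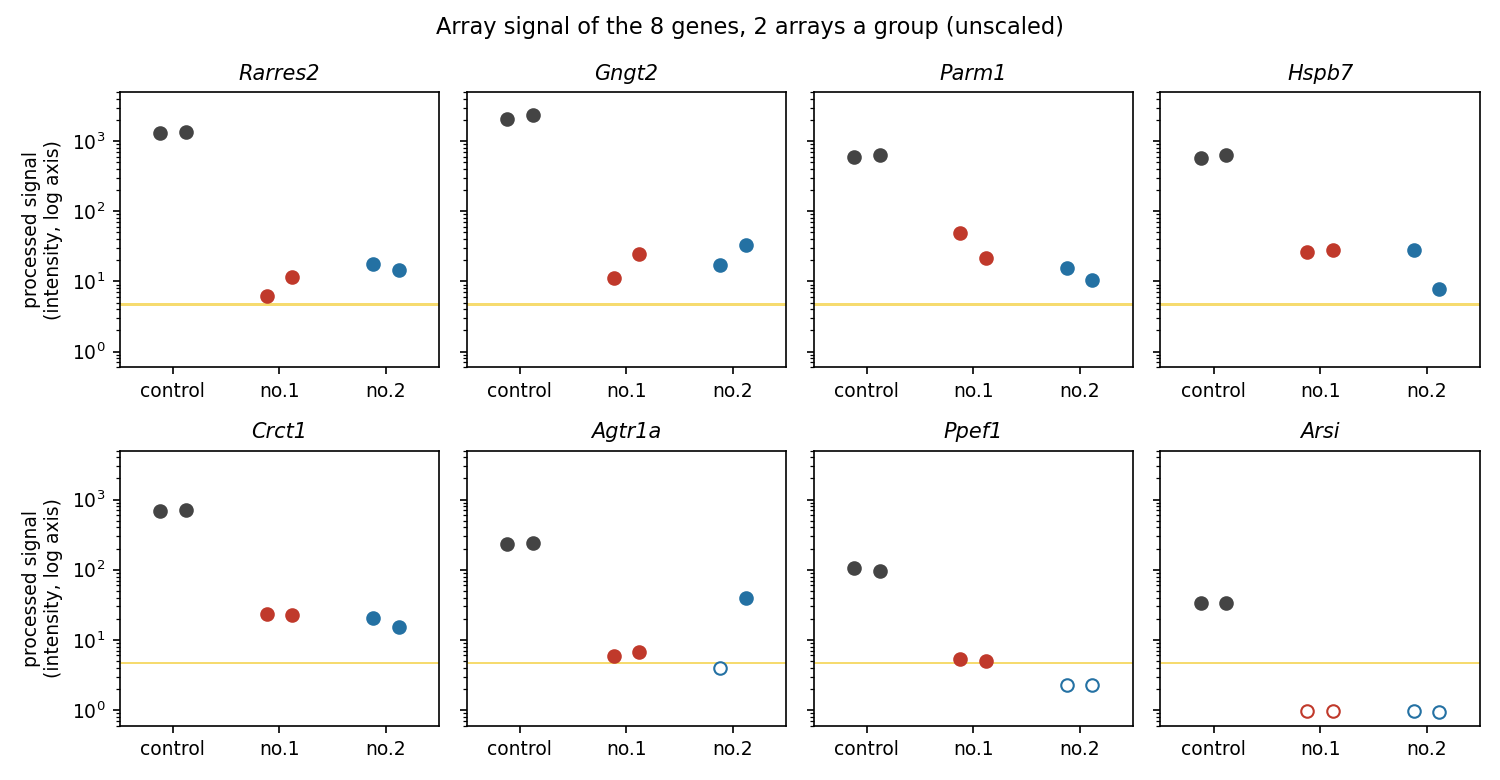
Unscaled processed signal (log axis) of the representative probe of each of the 8 genes on the 2 arrays of control, no.1 and no.2; filled points were well above background, open points were not, and the yellow band is the range over the 6 arrays of the lowest signal called well above background. Control points of Rarres2 lie at 1289 and 1348, while its other points lie between 6.22 and 17.9, and all 4 Arsi points of no.1 and no.2 are open.

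Over the 8 genes the median log2 difference was -6.43 in no.1 and -6.14 in no.2, and -6.12 and -6.06 with the genes below background at their bound. The median over all 23058 tested genes was -0.12 and -0.10. Both contrasts share the control arrays. In all 8 genes, all 4 exposed arrays were below both control arrays, as in 36.5% of tested genes, and since this contrast chose the genes nothing is read from that count. Against control, limma called 47.8% of tested genes in no.1 (26.4% lower, 21.4% higher) and 28.3% in no.2 (16.2% lower, 12.1% higher), and 14.3% were called lower in both. The 11020 calls in no.1 became 5385 without control replicate 1, 4998 without control replicate 2 and 5833 without no.1 replicate 1. The 6517 calls in no.2 became 1710 without control replicate 1, 1298 without control replicate 2 and 3010 without no.2 replicate 2. By the smaller of a gene's fitted falls in no.1 and no.2, with genes under background taken at their fitted value, Gngt2 ranked 6 and Rarres2 7 of 23058, and the last of the 8, Agtr1a, ranked 54. The choice states no threshold, and 46 genes outside the 8 had fitted falls at least as large as those of Agtr1a in both groups. The falls were smaller when arrays were scaled to the spike-in controls. As fitted, with Arsi and Ppef1 included where they were under background, they then ran from 13.01-fold to 108-fold in no.1 and from 12.8-fold to 61.3-fold in no.2, and the medians were -4.49 and -4.85.

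Medium with tamoxifen was compared with medium without it after the same exposure, the comparison the series' design text names and one the choice of genes did not use. No gene of the 8 was called between no.1 and no.2 (limma, 0 of 23058 genes called, 0%), with adjusted p from 0.282 to 0.880. Without no.1 replicate 2, 117 genes were called, none of the 8 among them. At an unadjusted p under 0.05 stood 4 of the 8 genes, beside 3823 of all genes (16.6%). These were Rarres2, Gngt2, Ppef1 and Arsi, the last under background in both groups and Ppef1 in no.2.

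Rarres2 was lower in no.1 by a log2 difference of -1.61 ± 0.37 (SE; 95% interval -2.51 to -0.71; adjusted p = 0.282), with both no.1 arrays below both no.2 arrays. Without the second no.1 array the difference was -2.14 (adjusted p = 0.063), and without the first it was -1.09 (adjusted p = 0.752). Gngt2 differed by -1.21 ± 0.49 (95% interval -2.42 to -0.013; adjusted p = 0.300), again lower in all 4 array pairs, and by -0.55 without the first no.1 array. Both intervals lay below 0 before adjustment, and neither difference passed after it. Parm1 differed the other way, by 0.66 ± 0.39 (95% interval -0.28 to 1.60; adjusted p = 0.399), and by 0.16 without the first no.1 array. Ppef1 was higher in no.1 by 0.52 ± 0.19 (95% interval 0.065 to 0.972; adjusted p = 0.282), but its no.2 signal was not well above background. Agtr1a differed by -1.66 ± 0.96 (95% interval -4.002 to 0.69; adjusted p = 0.398). That value turned on the no.2 arrays, being -0.02 without replicate 2 and -3.29 without replicate 1. Crct1 differed by -0.30 ± 0.23 (95% interval -0.86 to 0.26; adjusted p = 0.510) and Hspb7 by 0.19 ± 0.58 (95% interval -1.22 to 1.61; adjusted p = 0.880). The Hspb7 value was 1.14 without the first no.2 array and -0.75 without the second. For Arsi both groups were under background, so the fitted -0.65 ± 0.19 (adjusted p = 0.282) orders nothing.

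Arrays without overlap between no.1 and no.2 were found for Rarres2, Gngt2 and Arsi with no.1 lower, as in 25.4% of tested genes. Arsi was under background in both groups. Ppef1 had no.1 higher without overlap, as in 22.5%, its no.2 arrays being under background. Scaled to the spike-in controls, the differences were -0.97 for Rarres2 (adjusted p = 0.103), -0.57 for Gngt2 (adjusted p = 0.463), 1.31 for Parm1 (adjusted p = 0.0701) and 0.35 for Crct1 (adjusted p = 0.292), which turned its sign. With normexp background correction they were -0.22 for Rarres2, -0.19 for Gngt2 and 0.19 for Parm1, again without a call.

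**Figure D2:**
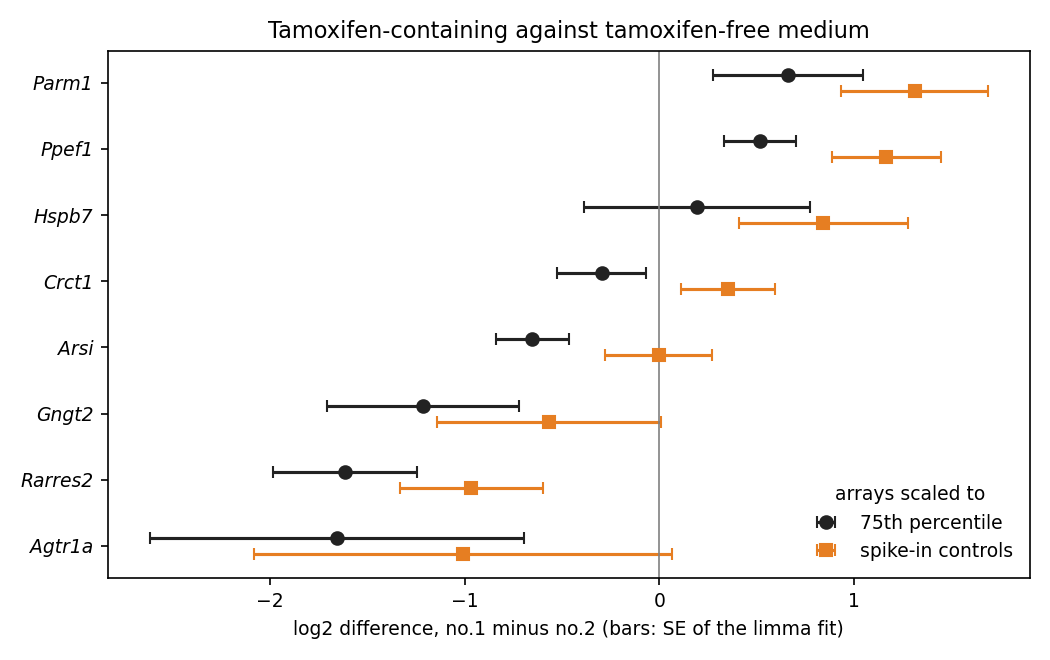
Log2 difference of each of the 8 genes between no.1 (tamoxifen-containing medium) and no.2 (tamoxifen-free medium after tamoxifen), with the limma SE as bars, for arrays scaled to the 75th percentile (circles) or to the spike-in controls (squares). Rarres2 at -1.61 and -0.97 and Parm1 at 0.66 and 1.31 lie on opposite sides of 0, and no difference was called.

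Likeness of pattern was measured as the root mean square difference between the log2 values of a pair of genes over the 6 arrays, each gene set relative to its control mean. It describes these arrays and shares their scaling. Rarres2 and Gngt2, both above background on all 6 arrays, differed by 0.41. Among 12680 named candidates above background in control, the genes most like Rarres2 after Gngt2 were Ndufa4l2 (0.73), an NDUFA4-like mitochondrial protein, Aldh1a3 (0.75), a retinoic acid-forming enzyme, Ccl8 (0.81), a chemokine, Vit (0.87), a matrix protein, and Serping1 (0.88), the C1 inhibitor. Ccl8 read 9769 and 10268 in control, 75.6 and 126 in no.1, then 102 and 366 in no.2. It was low on all exposed arrays and least so on the second no.2 array. Serping1 read 1077 and 1060 in control, 8.87 and 8.81 in no.1, then 10.1 and 43.9 in no.2, and so had the same high second no.2 array as Agtr1a. Ndufa4l2 differed from control by -7.90 and -6.35. Aldh1a3 differed by -8.14 in no.1 and was at least 148-fold lower in no.2, and Vit was at least 45.0-fold and 28.6-fold lower, so the likeness of both rests in part on signals under background.

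The genes that process or surround each of the 8 were taken as 9 lists, which leave the 8 genes out. Beside each list's calls stand the shares over all tested genes. These were 26.4% lower and 21.4% higher in no.1, and 16.2% lower and 12.1% higher in no.2. The retinoid and adipokine list, 17 of whose genes were tested, had 7 lower and 2 higher in no.1, and 5 lower and 0 higher in no.2, with medians of -0.52 and -0.40. Besides Aldh1a3, the lower genes included Dhrs3, a retinaldehyde reductase (-4.64 and -4.03), Aldh1a1, a further retinaldehyde dehydrogenase (-3.72 in no.1, where 1 array was above background, and at least 9.18-fold lower in no.2), and Lcn2, a lipocalin (-4.18 and -2.50). Adjusted p for these in limma was at most 0.0290, though Aldh1a1, like Aldh1a3, entered the tests through control alone. Of the 7 tested chemerin receptors and processing proteases, 4 were lower and 1 higher in no.1, and 1 each in no.2 (medians -0.90 and -0.48). Cathepsin K, Ctsk, which cleaves chemerin, fell (-2.86 in no.1 and -2.17 in no.2), and Plau, urokinase, rose by 1.25 and 0.98.

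Small heat shock proteins and their partners showed 7 of 14 tested genes lower in no.1 and 6 in no.2, with none higher and medians of -0.82 and -0.78. Cryab, alpha-B crystallin, fell (-3.81 and -3.26), as did its neighbour Hspb2 (-3.98 and -3.07), Hspa1a, an inducible Hsp70 (-2.02 and -1.44), and Hspb1 (-1.54 and -1.71). The epidermal differentiation complex, the gene cluster that holds Crct1, had 10 of 17 tested genes lower and 1 higher in no.1, and 12 lower and 0 higher in no.2 (medians -1.74 and -1.69). Of the 10 lower in no.1, 7 were S100 calcium-binding genes rather than cornified envelope genes. S100a8 was at least 32.5-fold lower in no.1 and 20.6-fold in no.2, and S100a16 fell (-3.39 and -3.52). S100a14 differed by -2.61 and Lce1m, a late cornified envelope gene, by -2.54 in no.1, and both were under background in no.2. Before scaling, Lce1m read 6.02 and 7.59 in control and 8.04 and 1.20 in no.1, so 1 no.1 array was above both control arrays. With spike-in scaling its no.1 difference was -0.60 (limma, adjusted p = 0.484). Beside these, the keratinocyte markers Krt5, Krt14, Krt1, Krt15, Epcam and Cdh1 were not well above background on any array. The summed percentile-scaled signal of the 10 keratinocyte markers was 13.05 to 13.56 in control, 11.2 to 11.6 in no.1 and 11.6 to 12.6 in no.2. Before scaling, Trp63, the brightest of them, read 345 and 325 in control, 814 and 699 in no.1, then 486 and 594 in no.2. Dsp, desmoplakin, was above background in control alone, at least 21.9-fold lower in no.1 and 13.9-fold in no.2. Dsp entered the tests through control alone, so no p-value is read for it. Krt10, Trp63 and Perp were well above background on all 6 arrays and did not pass the test in either group. With spike-in scaling Krt10 (2.20 and 0.91), Trp63 (1.70 and 1.25) and Perp (2.83 and 2.14) were called higher in both groups.

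Of 13 G protein beta and gamma subunits, 5 were lower and 2 higher in no.1, and 3 lower and 2 higher in no.2 (medians -0.35 and -0.25). Gng8 (-3.41 and -2.57) and Gng7 (-2.98 and -1.84) fell, while Gnb4 rose by 1.24 and 1.20 and Gng2 by 0.89 and 1.00. Of 12 renin-angiotensin genes, 4 were lower and 1 higher in no.1, and 1 lower and 2 higher in no.2 (medians -0.06 and -0.09). Prcp, which cleaves angiotensin II, rose by 1.46 and 1.00, and Ren1, renin, fell (-1.15 and -0.97). Of 13 sulfatases and their modifying factors, 6 were lower and 1 higher in no.1, and 1 each in no.2 (medians -0.60 and -0.48). Ids, a lysosomal sulfatase, rose by 1.65 and 1.18. Of 11 calcium-dependent phosphatases and calmodulins, 2 were lower and 2 higher in no.1, and 1 lower and 0 higher in no.2 (medians 0.18 and 0.04). Rcan1, a calcineurin inhibitor, fell (-1.41 and -1.47). Calml4 fell by 2.79 in no.1 and differed by -1.45 in no.2 (adjusted p = 0.066), and Ppp3cb rose by 0.90 in no.1 and differed by 0.52 in no.2. Of 8 mucin-like membrane proteins, 4 were lower in no.1 and 2 in no.2 with 0 higher (medians -0.41 and -0.43), among them Pdpn at -2.18 and -1.50 and Cd34 at -1.53 and -1.20.

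These directions hold for the percentile scaling. With spike-in scaling the calls were mostly higher, as over all tested genes (18972 higher and 422 lower in no.1, 15084 and 534 in no.2). In the epidermal list 2 genes were then lower and 6 higher in no.1 and 5 lower and 3 higher in no.2, and in the heat shock list 2 lower and 7 higher, and 2 lower and 6 higher. In the retinoid list 5 were lower and 10 higher, and 4 lower and 9 higher, and among the G protein subunits 1 lower and 10 higher, and 1 lower and 8 higher. No gene of the other 5 lists was called lower. Dhrs3 (-2.70 and -2.74), Cryab (-1.87 and -1.97), Hspb2 (-2.04 and -1.78), S100a16 (-1.46 and -2.23), Gng8 (-1.47 and -1.29) and Ctsk (-0.92 and -0.88) stayed below 0. So did Lcn2, Gng7, Pdpn, Calml4 and Hspa1a, with Pdpn and Hspa1a only slightly below 0 in both groups. Ctsk, Pdpn and Calml4 belong to lists with no gene called lower, so they were not called. Ren1 and Cd34 turned above 0 in both groups, and Rcan1 and Hspb1 in no.1.

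Calls in these lists also leaned on single arrays. Without control replicate 2, the genes called lower in no.2 were 3 in the epidermal list, 2 in the heat shock list, 3 in the retinoid list and 1 among the G protein subunits, and without control replicate 1 they were 5, 4, 3 and 2. In no.1 the lower epidermal genes numbered 7 to 12, the lower heat shock genes 5 to 8 and the lower retinoid genes 5 to 8 over the 6 left-out arrays. Leaving out control replicate 1 or 2 left 1 chemerin-related gene and 2 G protein subunits lower in no.1, and 0 sulfatase, renin-angiotensin and mucin-like genes lower in no.2. Without no.1 replicate 1 the genes called lower in no.1 were 2 chemerin-related, 3 G protein, 3 sulfatase and 2 mucin-like genes, and without no.2 replicate 2 no renin-angiotensin or mucin-like gene was called lower in no.2.

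**Figure D3:**
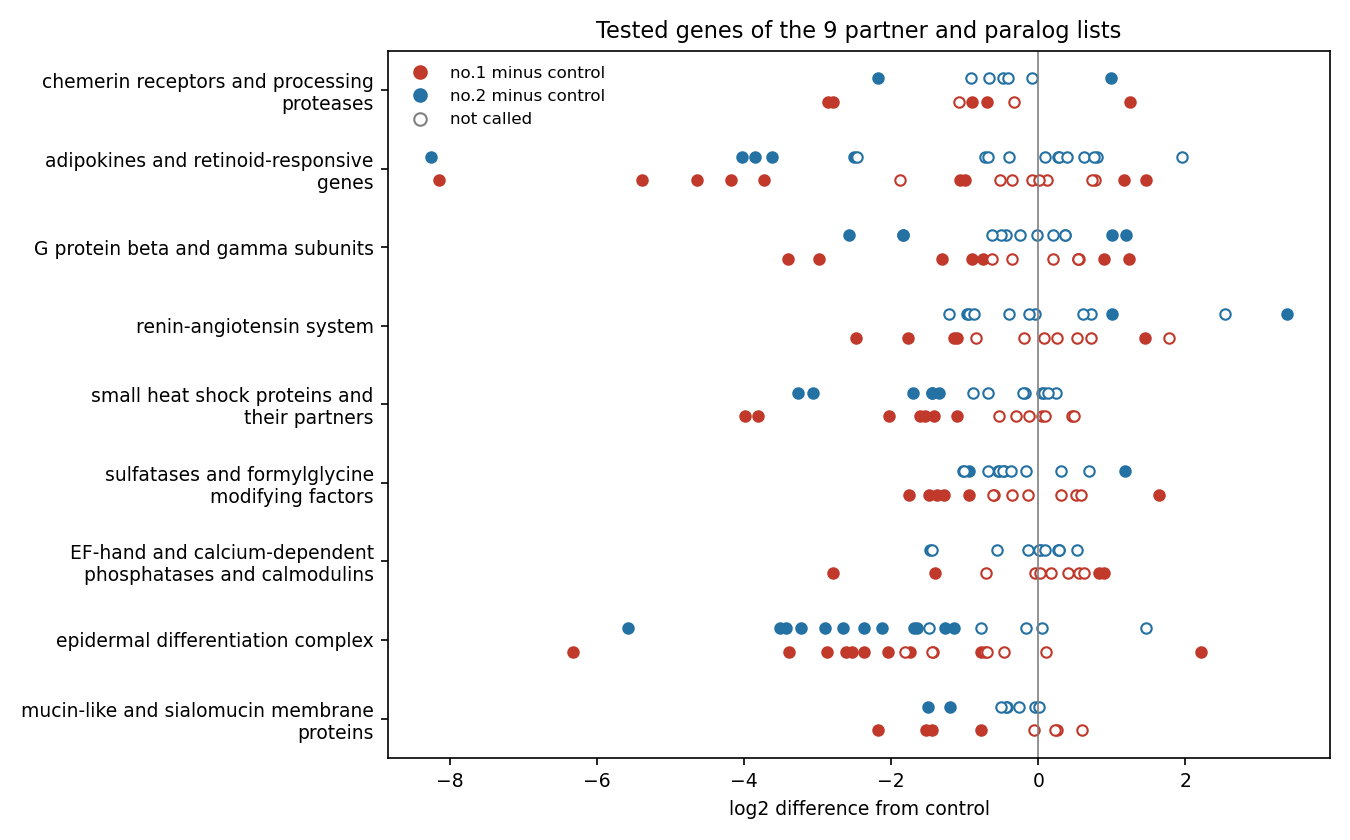
Log2 difference from control (percentile scaling) of every tested gene of the 9 lists, 1 point per gene and contrast, no.1 in red and no.2 in blue; filled points passed limma's adjusted p of 0.05 and open points did not. The epidermal differentiation complex has 10 filled points below 0 in no.1 and 12 in no.2. Points of genes under background, such as Aldh1a3 of the retinoid list in no.2, stand at their fitted values.

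Chromosomal neighbours were compared after the values of the 8 genes were known, to show how far along the chromosome the low signal reached. Up to 2 protein-coding genes on each side were taken in RefSeq order, 32 in all, of which 19 were tested. Of these, 7 were called lower and 5 higher in no.1 and 6 lower and 3 higher in no.2, with medians of -0.02 and -0.07. Over all tested genes, 26.4% were called lower and 21.4% higher in no.1, and 16.2% lower and 12.1% higher in no.2. Abi3, which encodes an adaptor of actin-regulating complexes and overlaps the span of Gngt2 on chromosome 11, read 55.3 and 55.8 in control, 1.24 and 1.23 in no.1, then 2.37 and 1.21 in no.2. It was above background in control alone, at least 30.6-fold lower in no.1 and 19.4-fold in no.2. Its calls rest on fitted values under background, since it entered the tests through control alone. Whether the Gngt2 and Abi3 probes read separate transcripts was not tested.

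Lce1m, beside Crct1 on chromosome 3, was well above background on 1 no.1 array and no no.2 array, and was at least 2.36-fold lower in no.2. Lrrc61, whose span overlaps that of Rarres2 on chromosome 6, read 58.8 and 66.9 in control, 86.1 and 96.6 in no.1, then 84.8 and 88.8 in no.2. It differed by -0.87 ± 0.21 (SE) in no.1 (limma, adjusted p = 0.0190) and by -0.25 ± 0.21 in no.2 (adjusted p = 0.386), and by 1.06 and 1.03 with spike-in scaling. Before scaling it thus read above control on every array where Rarres2 read far below it. Atp6v0e2, a proton pump subunit also near Rarres2, fell (-1.90 and -1.35), but read 0.03 and -0.07 with spike-in scaling. With normexp background correction its no.1 difference (-1.60) was larger in size than that of Abi3 (-1.25). Mboat1 beside Agtr1a rose by 2.07 and 1.54, Igf2bp1 near Gngt2 rose by 1.31 and 1.20, and Phka2 beside Ppef1 rose by 0.76 and 1.02. Rchy1 beside Parm1 differed by 0.05 and 0.03 and did not pass the test. Leaving out control replicate 1 or 2, 3 neighbours were called lower in no.1 and 1 in no.2. Leaving out no.2 replicate 1 or 2, 3 were called lower in no.2, and with spike-in scaling 1 was called lower in each group.

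**Figure D4:**
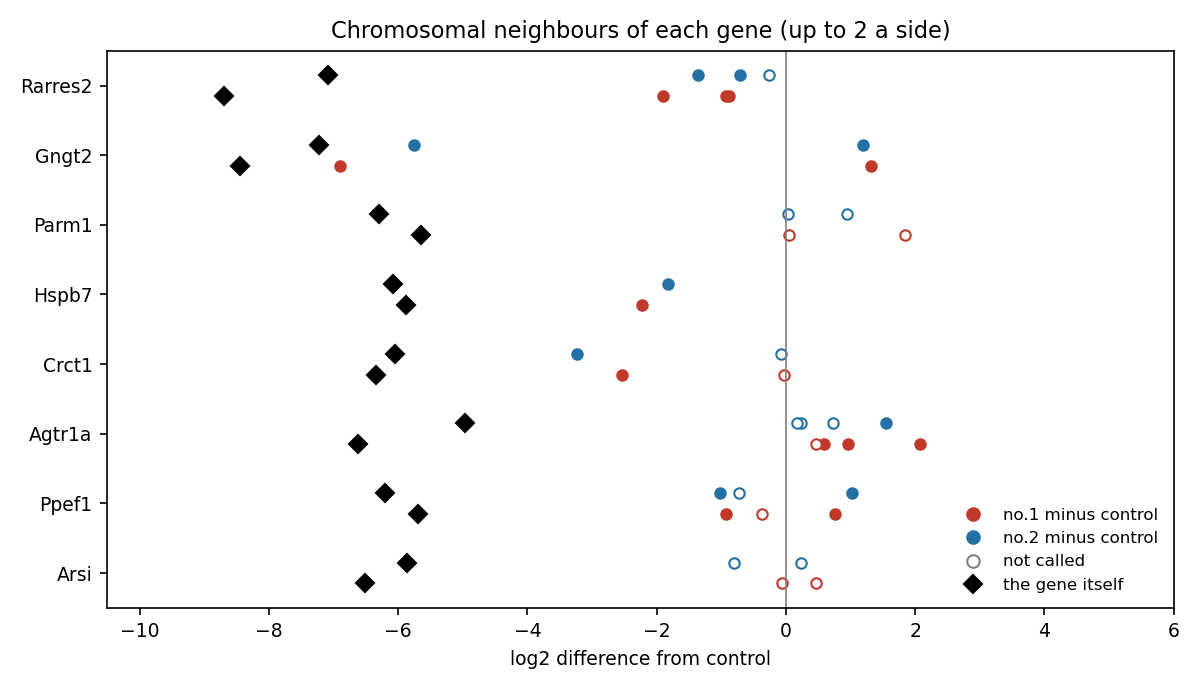
Log2 difference from control of each of the 8 genes (black diamonds, no.2 above and no.1 below) and of its tested neighbours (points, no.1 in red, no.2 in blue, filled where limma's adjusted p was under 0.05). Abi3 in the Gngt2 row stands at fitted values of -6.90 and -5.76, and its signal was under background on all 4 arrays of no.1 and no.2.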

How the data were processed

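Per the labels' protocols, total RNA was extracted by TRIzol, column-purified, and amplified and Cy3-labelled with a low-input kit. The authors deposited scanner intensity values, made with Agilent Feature Extraction 12.1.1.1 per the file headers (9.5.1.1 per the submitters' processing notes), and processed intensity values for the series. The headers name build mm9, and RefSeq records (GRCm38.p6) therefore gave only names, gene order and promoter windows. All 6 arrays lay on 1 slide and none of the probes was saturated (0 probes).

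The processed signal was taken as log2 minus log2 of the array's 75th percentile over non-control probes. A gene was its probe of highest mean, and entered the tests if both arrays of some group had that probe well above background. limma 3.58.1 in R 4.3.3 (with package data.table, version 1.17.8) was fitted to the 3 group means over all 6 arrays (3 residual degrees of freedom), with Benjamini-Hochberg adjusted p under 0.05 as a call. Every adjusted p is limma's. The scripts were tested on simulated data. The planned normexp alternative (offset 50) used the median spot signal in place of the mean, followed by quantile normalization.

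The 8 genes and the lists were chosen with earlier results of these data known. List genes were named where called in the same direction in both contrasts, at most 4 a list by mean size of the difference, or else by lowest p, and all direct receptors and paralogs on the array were named; a few genes are not reported here. The arrays' number limits the precision.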

Additional observations from a re-analysis of the deposited data

How the results depend on the processing

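Against control, the 8 genes' differences were recomputed 266 times under 17 alternatives and all lay below 0, from -9.23 to -1.07. The recomputed values reuse the arrays on which the genes were chosen for being low, so that count is no test. The median of the 8 in no.1 was -4.49 with spike-in scaling and -3.69 with normexp background correction, and ranged from -6.50 to -6.36 with single arrays left out. In no.2 it was -5.82 scaled to the median probe, -4.85 with spike-in scaling and -3.75 with normexp, and ranged from -6.45 to -6.09. Between no.1 and no.2, 129 of 133 recomputed values kept direction and side of the threshold. Hspb7 turned to -0.036 with the mean of its probes and lay between -0.75 and 1.14 with single arrays left out, and Crct1 to 0.35 with spike-in scaling. Without a filter on dim probes 1 of the 8 was called, Arsi (adjusted p = 0.0422), whose signal was under background in both groups, beside 8296 of 45616 genes. With single arrays left out, 0 to 117 genes were called.

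Genes called in no.1 numbered 11020, with 19394 under spike-in scaling (18972 higher, 422 lower, against 4940 and 6080), 24872 without a filter, 4845 with the control arrays averaged and 4998 to 12052 with single arrays left out. In no.2 they numbered 6517, with 15618 (15084 higher, 534 lower, against 2790 and 3727), 16476, 1246 and 1298 to 6361. Scaled to the median probe the split was 7564 higher and 3295 lower in no.1 and 4841 and 2176 in no.2. The causes were not tested. With a replicate block the counts were 10572, 6055 and 0 (no.1 against no.2), and it changed no call among the 8 genes. The labels give the arrays only a shared number, which file names tie to a time in no.1 and no.2. Same-numbered deviations correlated at -0.035 (control and no.1), -0.017 (control and no.2) and 0.165 (no.1 and no.2). Signals near background limit every fold: Rarres2 in no.1 was at most 2.41 times the lowest signal well above background.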

Other observations

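Of the other cell-type markers, S100b, a marker of Schwann cells and melanocytes, was above background in control alone. With percentile scaling it was at least 5.28-fold lower in no.1 and 3.36-fold in no.2. Fitted values with spike-in scaling were -2.35 and -2.39. S100b entered the tests through control alone, so no p-value is read for it. Before scaling it read 8.74 and 10.5 in control, 1.60 and 1.07 in no.1, then 1.47 and 1.04 in no.2. Sox10, Mlana and Tyrp1 of the same list were not well above background on any array. Dct, the brightest of that list and well above background on every array, fell (-1.82 and -1.44), with 0.11 and -0.15 under spike-in scaling. Pmel, well above background on 1 control array, differed by -1.11 and -1.09, with 0.83 and 0.19 under spike-in scaling. Csf1r, a macrophage receptor, fell (-2.40 and -2.07), but did not pass the test with spike-in scaling (-0.46 and -0.78, adjusted p = 0.199 and 0.0581). Cd68, Cd14 and Itgam were well above background on every array and did not pass in either group, while Ptprc, Adgre1, Lyz2, Mrc1, Fcgr1 and Tyrobp were not well above background on any array. With spike-in scaling Cd14 (1.89 and 1.52) and Itgam (1.53 and 0.97) were called higher in both groups. Cd68 (2.00 and 0.90) was then called higher in no.1 alone. The summed percentile-scaled signal of the 10 macrophage markers was 46.1 to 49.1 in control, 28.8 to 32.8 in no.1 and 30.0 to 36.9 in no.2. Before scaling, Itgam, the brightest of them, read 1261 and 1165 in control, 2433 and 2446 in no.1, then 1702 and 1518 in no.2. The adipocyte markers Adipoq, Plin1 and Cidec were not well above background on any array. Fabp4 fell in both groups (-1.32 and -1.04), with 0.62 and 0.25 under spike-in scaling. In no.1 Lep (-0.998) and Lipe (-1.39) fell and Pparg rose by 1.42, Lipe being well above background on 1 no.1 array. With spike-in scaling Lep was instead called higher in no.1 (0.94, adjusted p = 0.0212). Lipe was then at 0.54 (adjusted p = 0.196) and Pparg at 3.36. Flt1, an endothelial receptor, rose by 2.24 and 1.82, while Pecam1 (-0.34 and -0.12), Egfl7 (-0.41 and 0.01) and Kdr (1.89 and 0.31) did not pass and Cdh5, Cldn5 and Tie1 were not well above background on any array. With spike-in scaling Pecam1 (1.60 and 1.17), Egfl7 (1.53 and 1.30) and Kdr (3.83 and 1.60) were called higher in both groups. Kdr was well above background in no.1 alone, so its no.2 value compares signals under background and nothing is read from it. Pecam1 and Flt1 were well above background on 1 control array each. Among the fibroblast markers, Dcn (-3.73 and -2.29), Thy1 (-2.22 and -1.91) and Pdgfra (-1.54 and -1.08) fell. Under spike-in scaling Dcn was at -1.79 and -1.01 (limma, adjusted p = 0.0204 and 0.146). Thy1 was then at -0.29 and -0.62 (adjusted p = 0.335 and 0.0710) and Pdgfra at 0.39 and 0.21. Pdgfrb (-2.14) and Fbln1 (-0.78) fell in no.1, and Col1a1, Col1a2, Col3a1 and Vim did not pass in either group. With spike-in scaling in no.1, Pdgfrb was at -0.20 (adjusted p = 0.701), while Fbln1 was called higher (1.16, adjusted p = 0.0240). Col1a1 (1.80 and 1.54), Col1a2 (1.48 and 1.39) and Vim (1.91 and 1.20) were then called higher in both groups, and Col3a1 in neither.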
